A study of Mus musculus with 8 samples.

Results

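Growth factor receptor kinases were examined in adult oligodendrocyte lineage cells as a set of 10 genes chosen by name: the fibroblast growth factor receptors Fgfr1, Fgfr2 and Fgfr3, the ErbB family members Egfr, Erbb2, Erbb3 and Erbb4, the insulin-like growth factor receptor Igf1r, the insulin receptor Insr and the neurotrophin receptor Ntrk2. RNA levels were available for 9 of these 10 genes among the 11315 genes of the RNA tables, while Erbb2 had no row there and its RNA is not analysed here. DNA hydroxymethylation was available for all 10, at 1377 of the 1497075 listed sites. The adult oligodendrocyte progenitor cells (aOPC) were GFP-positive cells sorted from the brains of Pdgfra-H2BEGFP reporter mice at postnatal day 60, and the adult oligodendrocytes (aOL) were GFP-positive cells sorted from the brains of Plp-EGFP reporter mice at the same age. Both lines carry the C57BL/6 strain label, and animals of either sex were used. Each population had 2 RNA libraries and 2 hydroxymethylation libraries, numbered replicates 2 and 3, with RNA and DNA extracted from the same pellet of cells. In the progenitor line a nuclear GFP is made from the Pdgfra locus, which is also active in fibroblast-like cells of vessels and meninges. The study's protocol was meant to take out meninges and vessels, and a Percoll density gradient came ahead of the sort. Because each population came from its own reporter line, a difference between populations and a difference between lines cannot be told apart. The aOL hydroxymethylation samples carry a tissue label naming the Pdgfra reporter, and they were grouped by their titles. For RNA, the aOL titles read pre-myelinating but the extraction protocol reads myelinating, and which stage was sorted is not settled here.

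Receptor tyrosine kinases span the cell membrane and signal as pairs when a growth factor binds outside the cell. They phosphorylate tyrosines that recruit adaptor proteins, from which signals run through the Ras and MAP kinase cascade and the phosphatidylinositol 3-kinase pathway. In the oligodendrocyte lineage, FGF receptors are known for roles in progenitor growth and in myelin thickness, ErbB3 and ErbB4 bind neuregulins from axons, IGF1 receptor and insulin receptor support survival and growth, and TrkB, the product of Ntrk2, binds brain-derived neurotrophic factor. 5-Hydroxymethylcytosine (5hmC) is an oxidized form of methylcytosine made by the TET enzymes, and in many tissues it lies mainly within gene bodies.

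Hydroxymethylation was measured by Reduced Representation Hydroxymethylation Profiling (RRHP), in which a glucose is placed on 5hmC so that the enzyme MspI no longer cuts the sequence CCGG, and only protected ends are amplified. Each value is a raw count of reads that begin at 1 strand of 1 CCGG, called a site here, so a count rises with both 5hmC at that CCGG and the depth of the library. Summed over all listed sites, which is the total used here and lies below the read number the study lists for each library, the RRHP counts came to 7113237 (replicate 2) and 17121440 (replicate 3) for aOPC, with 15923775 (replicate 2) and 27057859 (replicate 3) for aOL. Counts were also expressed as CPM, the share of a scaled library total times 1000000, and 3 reads, the limit that a count of 0 allows, stood for between 0.110 and 0.476 CPM in these libraries with the scaling of the site test; such limits and the intervals below cover counting error only. The aOPC replicate 2 library stood apart, with 5.74% of its reads in CpG islands (95% Wilson interval 5.72 to 5.76%) against 2.38 to 3.32% in the other 3. RNA replicates were also less alike in aOPC, where the differences of the paired log2 levels had a standard deviation over genes of 0.952, against 0.446 in aOL. Oligodendrocyte transcripts were abundant in the RNA labelled aOPC as well: of 10 such markers, 4 were lower and 2 higher in both aOL libraries, the median difference was 0.0, and none was called. Mog, a protein of the outer myelin surface and 1 of the 4, read 17.59 and 17.76 in aOPC against 16.89 and 17.16 in aOL. The progenitor marker Pdgfra read 7.54 and 5.47 in aOPC against 4.98 and 1.63 in aOL. Of 10 progenitor markers, 5 were higher in both aOPC libraries than in both aOL libraries and none passed the test, where the groups of 61.8% of all genes tested did not overlap in one direction or the other. Among markers of other cell types, 3 of 8 tested for astrocytes, 3 of 8 for microglia, 2 of 3 for neurons and 3 of 4 for pericytes and fibroblasts were lower in both aOL libraries, 1 astrocyte marker (Slc1a3) and 1 microglia marker (Itgam) were higher in both, and both endothelial markers tested, of 8 listed, were also higher. The part of cell mixture in the differences below was not tested.

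The sequences below show where the called differences lay. They were read from the GRCm38.p6 reference on the plus strand, coordinates are counted from 1, and capitals mark CCGG. The first set gives Erbb4 introns, which held most of the called sites: a pair of short fragments with reads at both ends in aOPC and none in aOL, then both ends of a longer fragment of this kind, the site with the most aOL reads, and the called site with the most aOPC reads.
Erbb4, chr1:68150389-68150440: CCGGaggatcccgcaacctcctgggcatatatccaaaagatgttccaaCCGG
Erbb4, chr1:68922667-68922742: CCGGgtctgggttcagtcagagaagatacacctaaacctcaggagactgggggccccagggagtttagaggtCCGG
Erbb4, chr1:68513084-68513127: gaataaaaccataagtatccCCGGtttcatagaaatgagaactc
Erbb4, chr1:68513458-68513501: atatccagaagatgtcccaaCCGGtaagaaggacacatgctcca
Erbb4, chr1:69019136-69019179: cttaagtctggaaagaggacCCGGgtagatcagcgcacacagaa
Erbb4, chr1:69043319-69043362: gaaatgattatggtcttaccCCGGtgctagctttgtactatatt

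Another pair of Erbb4 fragments is shown because they are near copies of each other, 145 of 154 positions being identical (94.2%), and because the called site sat at the same end of each.
Erbb4, chr1:68801196-68801349: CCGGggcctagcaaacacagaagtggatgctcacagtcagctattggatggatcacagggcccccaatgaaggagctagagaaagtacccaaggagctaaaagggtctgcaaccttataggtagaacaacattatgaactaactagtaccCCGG
Erbb4, chr1:68856307-68856460: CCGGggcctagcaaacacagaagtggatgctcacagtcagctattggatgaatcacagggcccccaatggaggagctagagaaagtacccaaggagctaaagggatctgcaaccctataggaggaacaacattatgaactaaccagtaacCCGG

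The second set gives the called sites of the other receptors.
Fgfr1, chr8:25534591-25534672: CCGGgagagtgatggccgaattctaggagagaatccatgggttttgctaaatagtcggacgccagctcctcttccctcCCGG
Fgfr2, chr7:130180224-130180267: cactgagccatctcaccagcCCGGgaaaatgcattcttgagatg
Igf1r, chr7:68099899-68099942: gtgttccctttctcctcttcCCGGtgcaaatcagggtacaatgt
Igf1r, chr7:68118728-68118810: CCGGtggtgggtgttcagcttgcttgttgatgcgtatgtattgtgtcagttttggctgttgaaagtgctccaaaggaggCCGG
Ntrk2, chr13:58812056-58812099: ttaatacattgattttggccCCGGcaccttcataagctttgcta

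RNA levels spanned a wide range among the 9 receptors, and none passed the test between populations. In sorted bulk RNA, fewer cells of a type and less RNA per cell cannot be told apart. Fgfr2 was the most abundant, above 99.1% of all listed genes by mean level, followed by Erbb3 (94.3%), whereas Egfr lay above only 7.6% and Fgfr3 above 13.6%. After subtracting the log2 of each gene's annotated exon length in kb, so that levels could be set beside each other per length, the order was Fgfr2 (mean log2 level per kb 13.36, range over the 4 libraries 12.92 to 13.63), Erbb3 (11.23, 10.31 to 11.84), Insr (8.16, 7.54 to 8.93), Igf1r (7.65, 7.47 to 7.88), Fgfr1 (7.25, 7.15 to 7.44), Erbb4 (7.11, 6.61 to 7.63), Fgfr3 (5.17, 4.10 to 6.31), Ntrk2 (4.49, 4.10 to 4.66) and Egfr (3.66, 2.39 to 4.58). Neighbours whose ranges overlapped, and whose order is therefore not resolved by these libraries, were Insr and Igf1r, Fgfr1 and Erbb4, Fgfr3 and Ntrk2, and Ntrk2 and Egfr. The annotated exons of Ntrk2, which include those of its truncated forms, add up to 35.5 kb. This is the longest of the 9, so the largest log2 length was subtracted from its level.

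**Figure D1:**
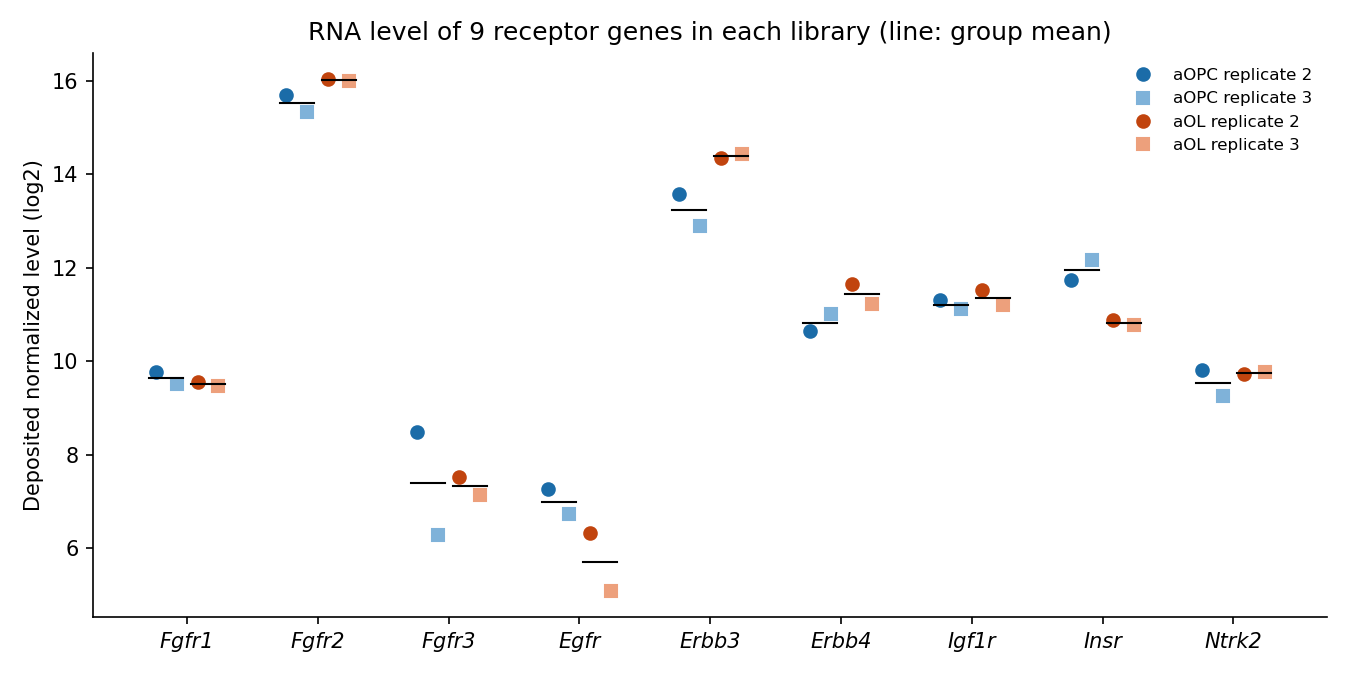
Deposited normalized log2 RNA level (vertical axis) of the 9 receptor genes with RNA values, with 1 point for each library and a line at each group mean (n = 2 per population). Fgfr2 sits near 16 and Egfr near 6; the populations separate without overlap for Fgfr2, Erbb3 and Erbb4 (aOL higher) and for Insr and Egfr (aOL lower).

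Among the FGF receptors, Fgfr2, the predominant FGF receptor of these cells by RNA, read 15.71 and 15.34 in aOPC against 16.05 and 16 in aOL (log2 levels, replicate 2 before replicate 3 here and throughout). Both aOL values were above both aOPC values, by 0.50 on average (95% interval -0.11 to 1.11, n = 2 per population). The limma adjusted p was 0.263. Fgfr1, another receptor for the same ligand family, read 9.77 and 9.52 in aOPC against 9.56 and 9.48 in aOL, and its groups overlapped (aOL minus aOPC -0.13, 95% interval -0.69 to 0.43). Fgfr3, which is known in this tissue mainly from progenitors and astrocytes, read 8.49 and 6.29 in aOPC against 7.52 and 7.13 in aOL, so that the aOPC libraries lay on either side of the aOL libraries. Its difference was -0.06 (95% interval -2.25 to 2.12), an interval that covers a change of over 2 log2 units either way. It became 1.04 without aOPC replicate 2 and -1.17 without aOPC replicate 3, and neither was called. Per exon length, Fgfr2 exceeded Fgfr1 by 5.73 to 6.42 log2 units across the 4 libraries and exceeded Fgfr3 by 6.98 to 8.83.

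Within the ErbB family, Erbb3, whose product binds neuregulins but has little kinase activity of its own, read 13.58 and 12.90 in aOPC against 14.36 and 14.43 in aOL. The groups did not overlap and the difference was 1.15 ± 0.30 (SE), or 2.23-fold higher in aOL, with unadjusted p = 0.0174 and limma adjusted p = 0.157. Erbb4, a catalytically active neuregulin receptor, read 10.64 and 11.01 in aOPC against 11.66 and 11.23 in aOL. Its groups also did not overlap, and the difference was 0.62 ± 0.27 (SE), with limma adjusted p = 0.253. Egfr, the receptor for EGF and TGF-alpha, was low and read 7.26 and 6.74 in aOPC against 6.32 and 5.08 in aOL, a difference of -1.30 ± 0.50 (SE) with limma adjusted p = 0.223. That difference was -0.68 without aOL replicate 3 and -1.92 without aOL replicate 2, called in neither. Erbb3 thus exceeded Erbb4 by 3.33 to 4.64 log2 units per exon length and exceeded Egfr by 6.26 to 9.45.

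The insulin and IGF1 receptors, 2 closely related kinases that can form hybrid dimers, gave different values. Insr read 11.75 and 12.16 in aOPC against 10.88 and 10.77 in aOL, with no overlap, and the difference was -1.13 ± 0.24 (SE), a 2.18-fold lower level in aOL. Its unadjusted p of 0.00822 was the smallest among the receptors, and its limma adjusted p was 0.134. Igf1r read 11.32 and 11.11 in aOPC against 11.52 and 11.20 in aOL, with overlapping groups and a difference of 0.15 (95% interval -0.48 to 0.77). Per exon length, Insr exceeded Igf1r by 0.83 and 1.46 log2 units in the aOPC libraries and lay 0.24 and 0.03 below it in the aOL libraries. This ratio was not tested. Ntrk2 read 9.81 and 9.25 in aOPC against 9.73 and 9.78 in aOL, a difference of 0.22 (95% interval -0.51 to 0.96).

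In all, 0 of 9 receptor genes were called by limma (unadjusted p under 0.01 and adjusted p under 0.05), where 0.0808% of the 11133 genes tested were called, and 0 were called with an intensity trend in limma either. At an unadjusted p under 0.05, 2 of the 9 (Erbb3 and Insr) were found, against 24.0% of all genes tested. Groups did not overlap for 5 of 9 receptors, against 61.8% of all genes tested. Calls appeared once an aOPC library was left out, for Erbb3 and Insr whichever it was. Without aOPC replicate 2, when 36.3% of all genes were called, Fgfr2 (0.68, adjusted p = 0.0231 by limma), Erbb3 (1.5, adjusted p = 0.0151) and Insr (-1.34, adjusted p = 0.0151) were called. Without aOPC replicate 3, when 21.3% of all genes were called, Erbb3 (0.81, limma adjusted p = 0.0413) and Insr (-0.92, limma adjusted p = 0.0409) were called. In these fits the lone aOPC library is assumed to vary as the aOL libraries do.

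The gene nearest to each receptor in pattern was found as the one with the smallest root mean square distance between values centred on their mean over the same 4 libraries. Distances were 0.008 to 0.023 log2 units for Ntrk2 (Plekhb1), Erbb4 (Pi4k2b), Fgfr2 (Lpgat1), Fgfr1 (Sf3a3), Igf1r (Fam65a), Insr (Rnps1) and Erbb3 (Hmgxb3), and they were larger for Egfr (Bmper, 0.077) and Fgfr3 (Ppfibp1, 0.117). These likenesses are descriptions over 4 libraries and carry no statement on shared function or control.

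The other genes of the pathway were described by 9 lists holding 136 genes, of which 85 were tested and 0 were called. At an unadjusted p under 0.05, 26 of these 85 (30.6%) were found, 19 higher and 7 lower in aOL, against 24.0% of all genes. Of 5 tested FGF ligands, 3 were higher in both aOL libraries, a share near the 61.8% of all genes whose groups did not overlap. Fgf1 read 13.55 and 13.13 in aOPC against 14.74 and 14.53 in aOL (limma adjusted p = 0.133), and Fgf7 read 6.16 and 6.79 against 8.38 and 8.60 (limma adjusted p = 0.122). Fgf1 binds all FGF receptors, whereas Fgf7 is known for a splice form of Fgfr2. Among 4 tested ErbB ligands, the Egfr ligands Tgfa (14.08 and 13.59 in aOPC, 14.64 and 14.54 in aOL) and Egf (5.52 and 3.77, against 6.61 and 6.53) were higher in both aOL libraries.

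The 6 tested insulin and IGF ligands and binding proteins had a median difference of -1.12, against 0.02 over all genes. Igfbp6, which binds IGF2 by preference, read 8.39 and 8.73 in aOPC against 3.37 and 4.97 in aOL. Igfbp2 read 8.13 and 7.60 in aOPC against 6.41 and 6.36 in aOL, and Igf2 read 5.65 and 5.27 in aOPC against 4.69 and 4.88 in aOL. Of the 4 fibroblast and pericyte markers tested, 3 were also lower in both aOL libraries, where the groups of 61.8% of all genes did not overlap, whichever was higher. The median level of these markers was 9.0 and 9.46 in the aOPC libraries against 6.10 and 5.37 in aOL. Their part in these values was not tested. Of the 2 neurotrophin co-receptors tested, Sort1, which encodes the sorting receptor sortilin, read 15.34 and 15.04 in aOPC against 16.55 and 16.52 in aOL (limma adjusted p = 0.123).

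Of 20 adaptors and substrates tested, none was called. Groups did not overlap for 11 of them, all higher in aOL, against 61.8% of all genes in either direction, the median difference was 0.30, and 7 had an unadjusted p under 0.05, against 24.0% of all genes. Without aOPC replicate 2, 8 of the 20 were called higher and 1 lower, in a fit that called 36.3% of all genes. The 3 with the smallest p were Sos1, a Ras exchange factor (11.46 and 11.24 in aOPC, 12.43 and 12.53 in aOL), Frs2, the docking protein of FGF receptors (10.76 and 10.49, against 11.78 and 11.72), and the docking protein Gab2 (9.78 and 9.19, against 10.97 and 10.86). In the Ras and MAP kinase cascade, the median of 11 genes was -0.06, and Map2k2, a MAP kinase kinase, read 13.25 and 13.31 in aOPC against 12.49 and 12.70 in aOL. Among 12 other receptor tyrosine kinases tested, the collagen receptor Ddr2, which lay lower in aOL as the fibroblast markers did, read 7.47 and 7.36 in aOPC against 5.28 and 3.24 in aOL, its relative Ddr1 read 15.52 and 15.66 against 14.91 and 14.90, and Fgfr4 read 6.68 and 6.47 against 7.45 and 7.30.

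Of 17 brakes on receptor signalling tested, none was called, and 6 were higher and 6 lower in both aOL libraries, where 61.8% of all genes did not overlap. Spry1, a Sprouty inhibitor of FGF signalling, read 8.81 and 8.64 in aOPC against 10.22 and 10.07 in aOL, and Spred1 read 11.70 and 12.29 against 13.49 and 13.34. Grb14, an adaptor that inhibits the insulin receptor, read 15.09 and 14.96 in aOPC against 13.71 and 13.90 in aOL, lower in aOL as Insr was. Among 8 transcription factors that are targets of ERK, Etv5 read 9.19 and 9.13 in aOPC against 11.13 and 10.60 in aOL (limma adjusted p = 0.122). The median of that list was -2.70, but its median level was 13.39 in aOPC replicate 2 against 8.86 to 9.09 in the other 3 libraries, and without aOPC replicate 2 the median difference was -0.55.

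Hydroxymethylation of the receptor gene bodies, taken as the sum over the sites that the tables assign to exons and introns, was near equal in the populations for most of the 10 genes. Igf1r carried the most reads, 1594 and 4816 in aOPC against 5091 and 7540 in aOL, which after scaling were 223 and 285 CPM in aOPC against 318 and 278 CPM in aOL. Ntrk2 followed, with 208 and 238 CPM in aOPC against 240 and 227 CPM in aOL. Egfr had the fewest reads, 104 to 348 a library, at 14.5 and 12.8 CPM in aOPC against 14.4 and 12.8 CPM in aOL. The edgeR log2 fold change of aOL over aOPC lay between -0.02 and 0.07 for 7 genes (Fgfr1, Fgfr2, Fgfr3, Egfr, Erbb2, Erbb3 and Ntrk2), with standard errors of 0.12 to 0.17.

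With all exon and intron sites summed, Erbb4 gave the largest of the 10 differences. Its gene body held 143 and 161 CPM in aOPC against 121 and 117 CPM in aOL, the only receptor whose populations did not overlap, where 38.1% of the 18488 gene bodies tested did not overlap. The log2 fold change was -0.36 ± 0.13 (SE), with unadjusted p = 0.0173 and edgeR adjusted p = 0.495. Summed only over sites with 3 reads in every library, which leaves out the sites with no reads in a population, it was -0.03 (edgeR adjusted p = 0.948), below Insr (0.25) and Igf1r (0.18) in size. Insr read 52.0 and 79.1 CPM in aOPC against 83.2 and 76.2 CPM in aOL (0.26 ± 0.18, SE), and Igf1r gave 0.23 ± 0.15 (SE), where in both genes aOPC replicate 2 was the low library. No receptor gene body was called by edgeR or DESeq2 (0 of 10, with 1 at an unadjusted p under 0.05 in each), where 0.849% of all gene bodies tested were called. Without aOPC replicate 2, Erbb4 was called lower in aOL (-0.44, edgeR adjusted p = 0.0294; 3.27% of all gene bodies called). Without aOPC replicate 3, Igf1r (0.43, edgeR adjusted p = 0.0122) and Insr (0.62, edgeR adjusted p = 9.85e-05) were called higher, where 22.6% of all gene bodies were called. Side by side, both aOL libraries of Erbb4 lay above aOPC in RNA (0.62) and below it in gene-body 5hmC (-0.36), and none of these differences was called with all libraries. For Insr the RNA difference was -1.13 and the gene-body difference 0.26.

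**Figure D2:**
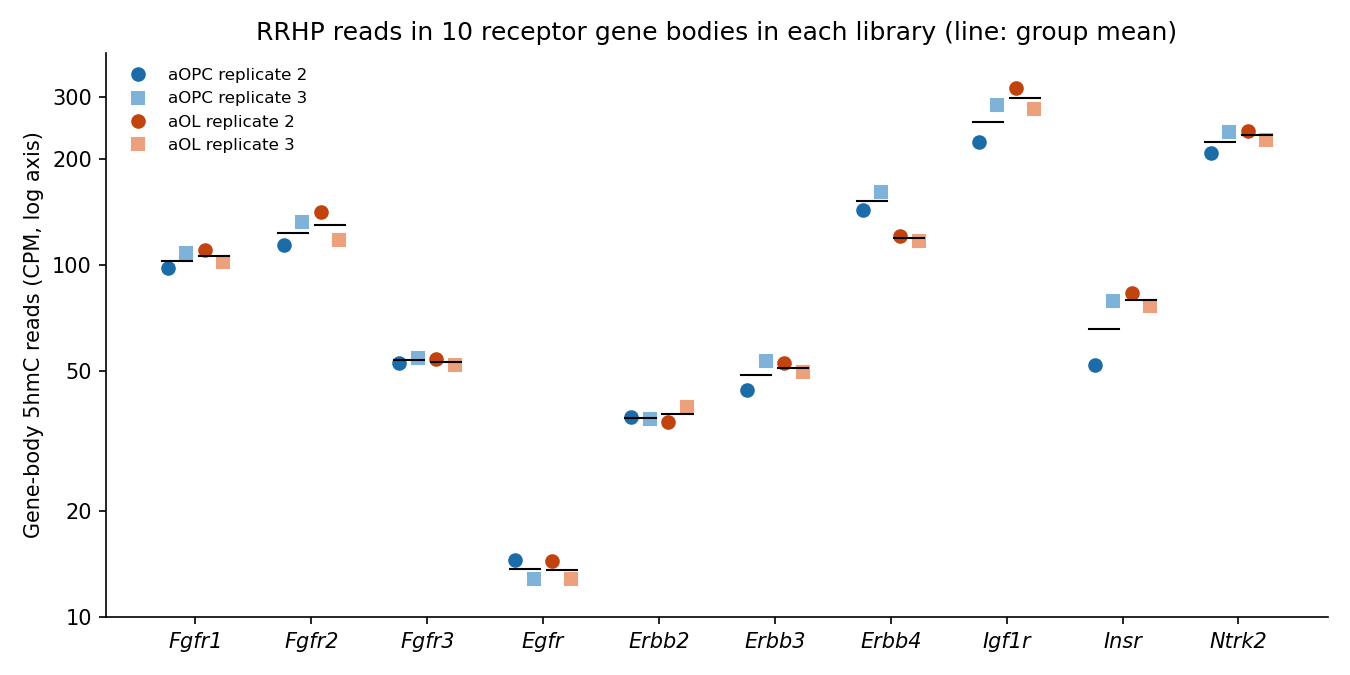
RRHP reads summed over exon and intron sites of the 10 receptor genes, as CPM after scaling (vertical log axis), with 1 point for each library and a line at each group mean (n = 2 per population). Igf1r lies highest, at 223 to 318 CPM, and Egfr lowest, at 12.8 to 14.5; Erbb4 is the gene whose aOL libraries (121 and 117) both lie below its aOPC libraries (143 and 161).

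Promoters of the receptor genes carried little 5hmC. Of 226 sites assigned to their promoters, 206 lay in CpG islands (91.2%, against 65.9% of all promoter sites listed). The highest count at any of the 226 in any library was 17, and 0 had the 10 reads in 2 libraries needed for a test. Of all promoter sites listed, 7.93% reached that number. Island sites were rarely tested in the receptor genes as a whole, 4 of 240. Averaged per listed site, receptor promoters had 0.272 and 0.0879 CPM in aOPC against 0.0836 and 0.121 CPM in aOL, against 0.853 to 0.968 CPM in their exons and 0.817 to 1.01 CPM in their introns. Over all genes the promoter values were 0.409 and 0.243 CPM in aOPC against 0.233 and 0.264 CPM in aOL. The value of aOPC replicate 2 was the highest both in these promoters and in all promoters.

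A promoter of Fgfr3 shows how a window dense in CCGG can still carry few reads. RefSeq's promoter table on GRCm38.p6, which covers 300 bases around each start, held windows for 7 of the 10 receptors (Egfr, Erbb2, Erbb4, Fgfr2, Fgfr3, Igf1r and Ntrk2). All of those windows hold CCGG, as do 52.8% of the 32851 windows in the table (CCGG reads the same on both strands, and copies do not overlap). The richer Fgfr3 window had 8 copies, of whose 16 strands 10 were listed, with 19 and 17 reads in aOPC against 20 and 34 in aOL summed over the window, and no site above 7.
Fgfr3, chr5:33722056-33722355, plus strand: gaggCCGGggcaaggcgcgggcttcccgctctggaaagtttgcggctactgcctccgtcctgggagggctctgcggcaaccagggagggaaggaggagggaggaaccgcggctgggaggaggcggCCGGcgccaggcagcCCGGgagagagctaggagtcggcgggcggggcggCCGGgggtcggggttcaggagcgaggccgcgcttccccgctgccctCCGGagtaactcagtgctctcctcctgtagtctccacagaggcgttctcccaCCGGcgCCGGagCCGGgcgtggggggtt

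Summed over each gene's promoter sites, the counts ran from 13 to 124 a library. The edgeR log2 fold changes lay between -0.37 (Egfr, 37 and 35 reads in aOPC, 25 and 55 in aOL) and 0.28 (Fgfr3, 55 and 55 reads in aOPC, 64 and 124 in aOL), with standard errors of 0.38 to 0.47. On library totals all 10 were lower in aOL, from -0.32 (Fgfr3) to -1.1 (Erbb2), none of them called, as the median over all promoters went from -0.015 to -0.597. None of the 10 promoters was called by edgeR or by DESeq2, and 0 had an unadjusted p under 0.05 with either, where 0.768% of the 14579 promoters tested were called.

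**Figure D3:**
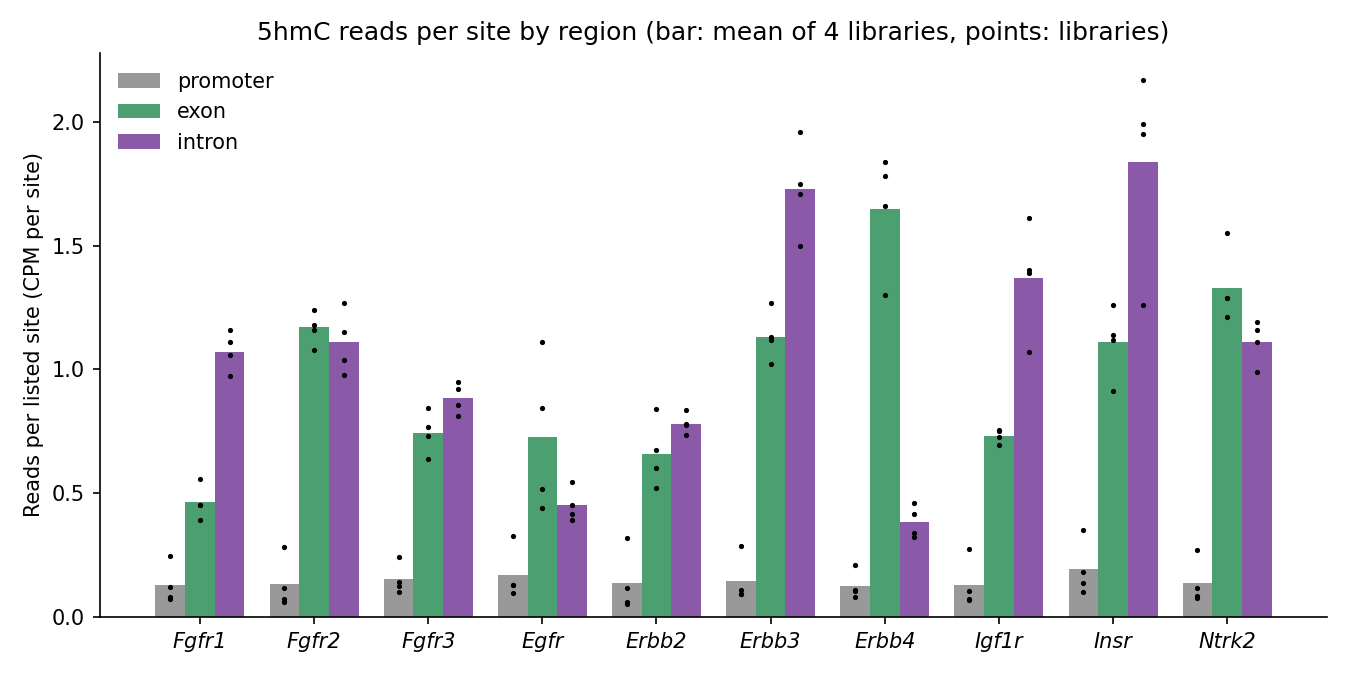
Mean RRHP reads per listed site (CPM per site, on library totals) in promoters, exons and introns of the 10 receptor genes; bars are means of the 4 libraries and points are the libraries. Promoter bars lie at 0.125 to 0.193 in every gene, below the exon bars (0.463 to 1.65) and the intron bars (0.384 to 1.84); the lowest intron bar is that of Erbb4.

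Coverage per site also differed among the genes. Introns of Insr (1.84 CPM per site) and Erbb3 (1.73) had the highest mean, and those of Erbb4 (0.384) and Egfr (0.452) the lowest. In Erbb4 the exons, at 1.65 CPM per site over 8 sites, stood above the introns, over 312 sites. Most of these exon reads lay at the 4 exon sites with enough reads for a test, all between positions 68040057 and 68040411. The exon mean therefore describes that short stretch. Erbb4 is also the longest of the genes: its annotation on GRCm38 runs from 68031884 to 69108576 on chromosome 1, minus strand, 1076.7 kb with 680 CCGG strand sites, of which 50.1% were listed. Listed shares were highest in Fgfr3 (77.2% of 114) and lowest in Egfr (27.1% of 144).

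At the level of single sites, 465 of the 1377 receptor sites had at least 10 reads in at least 2 libraries and were tested (33.8%, against 29.6% of all sites). Of these, 8 were called higher and 14 lower in aOL, 22 in all or 4.73%, where 2.29% of the 443062 sites tested were called. The excess over that background came from 1 gene. Erbb4 held 17 of the 22, all in introns, out of 64 tested sites (26.6%), and the other 9 genes held 5 of 401 (1.25%). No called site lay in an exon, but only 65 of the tested sites were exonic, against 400 in introns. In Erbb4 the numbers tested were 4 and 60.

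Most of the called Erbb4 sites had no reads in 1 population. Of the 17, 12 were lower in aOL and 8 of these had no aOL read at all, while 5 were higher in aOL and 4 of these had no aOPC read. A site with no reads in a population passed the filter only through the other population, so it could only differ, and the numbers of such sites are a description rather than support for a difference in the gene. At position 69043340, in intron 1 and 65.2 kb from the start, there were 34 and 120 reads in aOPC against 0 and 0 in aOL. Taking 3 reads in each aOL library as the limit, this was at least 42.5-fold lower in aOL. The reverse was seen at position 69019157, also in intron 1, with 0 and 0 reads in aOPC against 147 and 291 in aOL. By the same limit this was at least 29.9-fold higher in aOL. The fragment of that site was 762 bases long, and its other end had 0 and 1 reads in aOPC against 3 and 1 in aOL. The site with the opposite direction thus lay in the same intron, 89.4 kb from the start.

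Further sites of the first intron followed the first pattern. Position 68856203 had 24 and 87 reads in aOPC against 0 and 0 in aOL, and position 68856459 had 31 and 109 in aOPC against 2 and 6 in aOL. The latter is the called end of a 154-base fragment shown above. The near copy of that fragment had 15 and 40 reads in aOPC against 2 and 5 in aOL at the same end (position 68801348). The other ends of these fragments were not lower in aOL. That of 68856459 had 3 and 7 reads in aOPC against 9 and 12 in aOL. That of 68801348 had 0 and 4 in aOPC against 5 and 21 in aOL. Neither had enough reads for the test. In intron 3, position 68469300 had 30 and 70 reads in aOPC against 0 and 1 in aOL, a ratio of pooled counts of 184 with a 95% exact counting interval of 32.3 to 7340. In the same intron, position 68427335 had 1 and 0 reads in aOPC against 39 and 84 in aOL, a ratio of 66.9 (11.8 to 2660). Its fragment was 1594 bases long, and the other end had 0 and 2 reads in aOPC against 0 and 0 in aOL. The other called sites higher in aOL had 0 and 0 reads in aOPC, against 28 and 46 in aOL at position 68293693 (intron 15), 22 and 33 at position 68437993 (intron 3) and 12 and 15 at position 68498455 (intron 3). The fragments of these sites were, in that order, 1243, 1103 and 420 bases long. Position 68498455 was not called with strands added (edgeR adjusted p = 0.0501) and had no adjusted p in DESeq2. The smallest fitted log2 fold change among the 17, -2.62, was at position 68625134 in intron 2, with 12 and 31 reads in aOPC against 3 and 10 in aOL, a ratio of 6.08 (3.21 to 12.3), which DESeq2 did not call (adjusted p = 0.0597).

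Both ends were called in 3 Erbb4 fragments, those shown first above. The 52-base fragment had 13 and 33 reads at its plus-strand end and 15 and 53 at its minus-strand end in aOPC, with 0 at both ends in aOL. The 76-base fragment had 12 and 51 reads and 11 and 26 reads in aOPC, again with 0 in aOL, and the 378-base fragment had 11 and 14 reads and 11 and 22 reads in aOPC with 0 in aOL. Over all 22 called sites, the other end of the fragment was listed for 20, and for 17 of these its scaled counts were on the same side. The ends of a fragment are not independent, so these pairs count as single observations of the fragment.

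**Figure D4:**
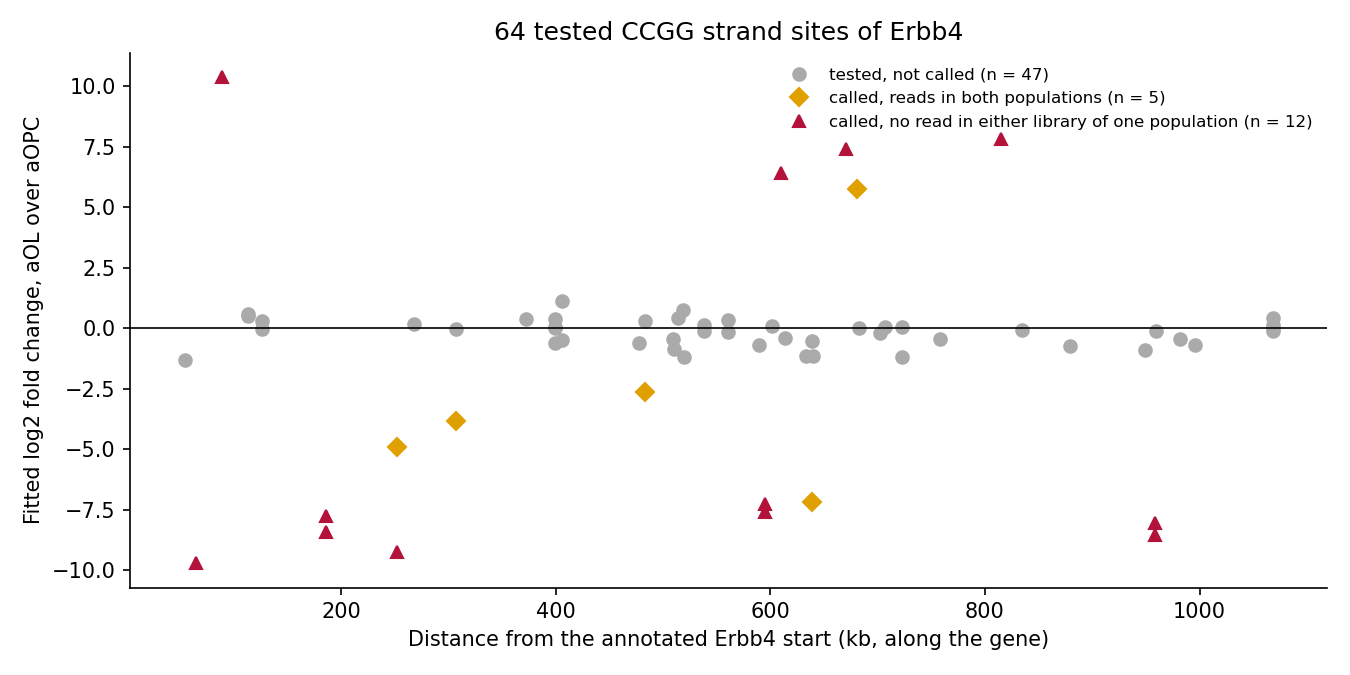
Fitted edgeR log2 fold change of aOL over aOPC (vertical axis) of the 64 tested Erbb4 sites against distance from the annotated start along the gene in kb (horizontal axis). The 47 sites that were not called lie between -1.31 and 1.14; the 12 triangles are called sites with no read in either library of a population, whose fitted values depend on the prior count and are no bound, and called sites are spread from 65.2 to 958.2 kb on both sides of 0.

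The remaining 47 tested Erbb4 sites had a median log2 fold change of -0.09. Their summed reads were 71.1 and 74.8 CPM in aOPC against 72.2 and 69.4 CPM in aOL, whereas the 17 called sites summed to 34.9 and 36.8 CPM in aOPC against 14.9 and 18.0 CPM in aOL. The called sites held 21.4% and 24.0% of the reads assigned to Erbb4 in aOPC against 13.2% and 15.5% in aOL. The 277 Erbb4 sites with too few reads for the test, promoter sites included, summed to 57.2 and 41.4 CPM in aOPC against 26.3 and 28.7 CPM in aOL, so lower sums in aOL were found outside the called sites too. Without the called sites the gene body held 112 and 122 CPM in aOPC against 105 and 98.8 CPM in aOL, a log2 ratio of means of -0.20 in place of -0.36.

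The surroundings of Erbb4 were also rich in called sites. Within 2.5 Mb on either side of the gene, 51 of 452 other tested sites were called (11.3%), 45 of them with 3 or fewer reads in both libraries of the lower population. Igf1r lay in a like stretch, with 112 of 995 flanking sites called (11.3%) and 101 of those at 3 or fewer reads, although only 2 of its own 111 tested sites were called. Flanking shares were 5.04% for Egfr, 4.07% for Fgfr1 and 3.0% for Erbb3, and 0.463 to 0.830% for Fgfr2, Fgfr3, Erbb2, Insr and Ntrk2. Over the whole genome, 76.4% of called sites had 3 or fewer reads in both libraries of the lower population, as had 17 of the 22 receptor sites. Whether these stretches belong to the population or to the reporter line cannot be told apart.

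**Figure D5:**
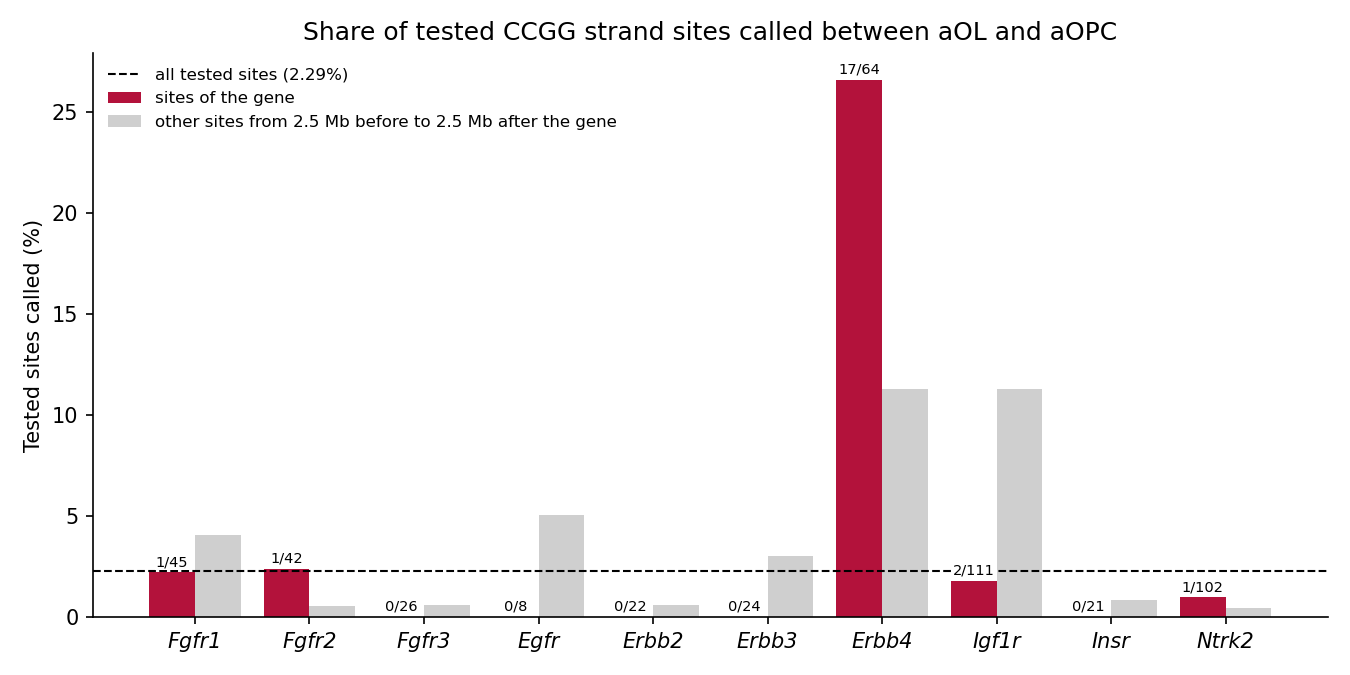
Percentage of tested sites called between aOL and aOPC (vertical axis) within each receptor gene (dark bars, with called and tested numbers above) and among the other sites within 2.5 Mb of it (grey bars); the dashed line is the share over all tested sites, 2.29%. Erbb4 reaches 26.6% with flanks at 11.3%, Igf1r has flanks at 11.3% but 1.80% in the gene, and 5 genes have no called site.

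Outside Erbb4, 5 sites were called, all intronic. The Fgfr1 site at position 25534592 of chromosome 8, in intron 2, had 23 and 49 reads in aOPC against 0 and 0 in aOL, at least 22.4-fold lower in aOL (limit of 3 reads in each aOL library). Its fragment of 82 bases had 4 and 13 reads against 0 and 0 at the other end, while the opposite strand of the same CCGG, which opens the neighbouring fragment, had 3 and 16 reads in aOPC against 25 and 39 in aOL. The opposite strand was not called (0.93 ± 0.48, SE; edgeR adjusted p = 0.585). With both strands added, the log2 fold change of this CCGG was -1.4 (edgeR adjusted p = 0.0463). The Fgfr2 site at position 130180245 of chromosome 7, in intron 12, had 1 and 2 reads in aOPC against 24 and 33 in aOL, a ratio of 10.3 (95% exact counting interval 3.36 to 51.6), and the other end of its 390-base fragment had 0 and 7 against 13 and 20. It was not called with DESeq2 (adjusted p = 0.194) or with strands added (log2 fold change 2.11, edgeR adjusted p = 0.0826). The Ntrk2 site at position 58812077 of chromosome 13, in intron 2, had 0 and 1 reads in aOPC against 15 and 19 in aOL, a ratio of 18.5 (3.10 to 751), and was given no adjusted p by DESeq2. It was not called when either aOPC library was left out (edgeR adjusted p = 0.0622 and 0.0654).

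Igf1r had a called site in each direction, both in intron 2 on chromosome 7. Position 68099921 had 4 and 17 reads in aOPC against 64 and 77 in aOL, a log2 fold change of 1.93 ± 0.41 (SE) with edgeR adjusted p = 0.0167, and the other end of its 380-base fragment had 6 and 14 reads against 51 and 48. Position 68118809 had 22 and 52 reads in aOPC against 20 and 25 in aOL (-1.61 ± 0.37, SE; edgeR adjusted p = 0.0333), whereas the other end of its 83-base fragment, with 8 and 19 against 16 and 32, gave -0.10. DESeq2 called neither site (adjusted p = 0.0821 for the first and 0.215 for the second), and the second was not called on library totals either (edgeR adjusted p = 0.0515). Of the 22 called receptor sites, position 68118809 was the only one with at least 10 reads in every library. At an unadjusted p under 0.05 there were 70 receptor sites of 465, 38 of them higher in aOL, where 9.75% of all tested sites had such a p. Igf1r held 16 sites higher and 5 lower in aOL among its 111, and its median log2 fold change was 0.20.

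The best covered site of each gene was taken as the one with the most CPM summed over the 4 libraries, and none of these 10 was called. In Insr this was position 3263254 of chromosome 8, with 90 and 269 reads in aOPC against 277 and 454 in aOL (0.16 ± 0.24, SE). In Ntrk2 it was position 59120288 (81 and 274, against 236 and 308; -0.18 ± 0.25, SE), and in Igf1r position 68072953 (43 and 195, against 188 and 248; 0.13 ± 0.28, SE). The best covered site of Fgfr2, position 130177636, gave -0.04 ± 0.27 (SE), and that of Fgfr1, position 25538202, gave -0.06 ± 0.26 (SE). In Erbb4 it was an exonic site, position 68040411 in exon 27, with 35 and 100 reads in aOPC against 102 and 172 in aOL (0.14 ± 0.27, SE), although by raw reads the called site at position 69019157 had more. In Erbb2, whose RNA is not analysed here, position 98419109 of chromosome 11 in intron 1 had 60 and 115 reads in aOPC against 76 and 122 in aOL, giving -0.80 ± 0.29 (SE) with edgeR adjusted p = 0.290. Those of Fgfr3 (-0.14 ± 0.30, SE), Egfr (0.28 ± 0.35, SE) and Erbb3 (-0.28 ± 0.27, SE) completed the set. Where each library of the higher population had 50 reads or more, the largest fold in Ntrk2 was at position 59041809 (7 and 25 reads in aOPC against 52 and 61 in aOL; log2 fold change 1.0 ± 0.39, SE; edgeR adjusted p = 0.349), and in Fgfr3 it was in exon 6 at position 33730033 (6 and 35 against 51 and 63; 0.70 ± 0.39, SE). The corresponding sites of Fgfr1 (0.32), Fgfr2 (-0.55), Erbb3 (0.44) and Insr (0.64) were not called either.

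The surrounding sequence was compared as a description, with no test. Of the 22, 11 had their CCGG in bases that the reference marks as repeats, against 61 of 443 receptor sites that were tested and not called (13.8%). In Erbb4, whose tested sites were mostly in repeats, the numbers were 9 of 17 called and 38 of 47 not called. Over all tested sites, 18.0% of those called and 26.8% of those not called were in repeats. The first 50 bases read inward from each of the 22 called sites occur once in the assembled chromosomes.

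The site calls depended on the filter and on the libraries. With at least 10 reads required in every library, 0 of 193 receptor sites were called by edgeR (9 at an unadjusted p under 0.05), where 0.286% of 171055 sites were called; 21 of the 22 called sites do not pass that filter. With DESeq2, 16 of the 22 were called, 15 of them in Erbb4, and 2 of the others had no adjusted p. With the strands of each CCGG added, 20 of the 22 were called, some with a much smaller fold: in Erbb4 the fitted log2 fold change went from -8.06 to -3.27 at position 68150390, from -7.61 to -3.37 at 68513480 and from -9.25 to -6.41 at 68856203, where the opposite strand had reads in aOL. Without aOPC replicate 2 (1.66% of all tested sites called), 10 of the 22 could be tested and 7 were called, and without aOPC replicate 3 (6.74% of all called) the numbers were the same. Without aOL replicate 2 (1.16% of all called), 12 of 15 tested were called, and without aOL replicate 3 (1.31%), 14 of 15. All of those tested kept their direction in each of these fits. With a library left out, a site read almost only in a single population could be tested only where both libraries of that population remained. Such sites could hardly turn, so their kept direction is a description rather than support. The lone library of the other population is assumed in these fits to vary as the remaining pair does.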

How the data were processed

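RNA levels in 4 libraries and RRHP counts in 4 libraries (2 per population in each) were taken as deposited by the authors. The deposited RNA values are log2 expression levels normalized by the authors. Per the study's methods, reads were aligned with BWA to mm10, reads in exons were counted with featureCounts and DESeq2 was applied. The log base is not stated; values of 2 to the power of the level give sums like a read total. The deposited RRHP counts are raw reads per strand of a CCGG on mm10; the aligner of these reads and the treatment of duplicates are not given in the sources used here. All 1494474 sites on assembled chromosomes lay at a CCGG of GRCm38.p6, the build of mm10.

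The receptor genes and the pathway lists were chosen with earlier results of these data known. RNA was tested with limma (version 3.58.1) over genes with a log2 level of at least 5 in at least 2 libraries, and a gene was called at an unadjusted p under 0.01 and a Benjamini-Hochberg adjusted p under 0.05. RRHP sites at which 2 or more libraries reached 10 reads, and sums over exon and intron sites or promoter sites of a gene (filterByExpr), were tested with edgeR's quasi-likelihood test (version 4.0.16) with TMM scaling on library totals and called at an adjusted p under 0.05. All tests were two-sided, fitted on the whole table and adjusted over it. The fits were tested on simulated data with known changes. The labels do not say which libraries came from separate animals, so p-values measure the spread between these samples. Fold limits took 3 reads in each library with none; count ratios carry exact binomial intervals.

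Named were all 10 receptors, every called site in them, the site of each with the most CPM summed over the libraries, and the site of largest fold among those where each library of the higher population had 50 reads or more; in the lists, up to 3 genes with the smallest unadjusted p under 0.05 and no overlap. Sites were placed on the RefSeq transcript with the most exons. Alternatives covered filters, scaling, another tool (DESeq2, version 1.42.0), annotated spans, added strands, a replicate block and leaving out each library. Libraries of replicate 1 are not analysed here.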

Additional observations from a re-analysis of the deposited data

How the results depend on the processing

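Each population had 2 libraries, and aOPC replicate 2, the shallowest RRHP library, stood apart in that assay. Counts called over all features moved as follows. RNA genes (9 called) came to 23 with an intensity trend, 0 with no filter (2661 at an unadjusted p under 0.05), 127 with a replicate block, 2677 at an unadjusted p under 0.05 with groups that do not overlap (2 receptor genes), and 99 to 3995 with a library left out (0 to 3 receptor genes). Sites (10154) came to 6651 with DESeq2, 490 with 10 reads in every library (0 receptor sites), and 4512 to 26266 with a library left out (8 to 36 receptor sites, 22 with all libraries). Gene bodies (157) came to 339 over annotated spans, 10 over sites with 3 reads in every library, and 83 to 4246 with a library left out (0 to 2 receptor genes). Promoters (112) came to 64 with DESeq2, 219 with any count above 0 admitted, 38 over sites with 3 reads in every library, 376 in windows from 2 kb before to 500 bases after the start, and 66 to 1665 with a library left out (0 receptor genes). Scaling on library totals moved the median promoter difference from -0.015 to -0.597 and lowered the share of higher calls from 54.5% to 31.3%. The causes were not tested.

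Replicate numbers did not pair the libraries: the differences between replicates in aOPC and those in aOL correlated over genes or sites at -0.074 (RNA), -0.08 (sites), -0.41 (gene bodies) and -0.446 (promoters). With the replicate block, 25 receptor sites, 0 receptor gene bodies and 0 receptor promoters were called, among 13027, 209 and 81. A crossed pairing, chosen after seeing the data, called 718 gene bodies (1 receptor gene) and 337 promoters.

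Directions turned for the receptor values that follow, none of which was called with all libraries. Site 25538202 of Fgfr1 gave 0.04 on library totals, 0.01 with 5 reads as the minimum, 0.04 with strands added and 0.11 with 10 reads in every library. Site 130177636 of Fgfr2 gave 0.06, 0.03 and 0.12 on library totals and with the looser and stricter minimum, and site 33724499 of Fgfr3 gave 0.08 with strands added and 0.0 with the stricter minimum. Gene bodies of Erbb2 (-0.03) and Ntrk2 (0.0) turned over sites with 3 reads in every library, as did promoters of Fgfr3 on library totals (-0.32), Fgfr2 with the block (0.02) and Erbb3 in annotated windows (0.03). With a library left out, ranges that crossed 0 were, in RNA, Fgfr3 -1.17 to 1.04, Igf1r -0.01 to 0.31 and Ntrk2 -0.06 to 0.51. In gene bodies they were Fgfr1 -0.04 to 0.12, Fgfr2 -0.06 to 0.2, Fgfr3 -0.04 to 0.02, Egfr -0.09 to 0.09, Erbb2 -0.04 to 0.12, Erbb3 -0.06 to 0.22 and Ntrk2 -0.03 to 0.18. In promoters they were Fgfr1 -0.31 to 0.24, Fgfr2 -0.48 to 0.64, Erbb2 -0.81 to 0.5, Erbb3 -0.45 to 0.05, Igf1r -0.57 to 0.19, Insr -0.44 to 0.06 and Ntrk2 -0.41 to 0.12. At sites they were Fgfr1 25556759 at 0.0 to 0.93, Fgfr2 130177636 at -0.2 to 0.19, Fgfr3 33724499 at -0.44 to 0.39 and Igf1r 68072953 at -0.11 to 0.51. All other receptor values kept their direction, and at the thresholds used in the report no receptor was called in RNA in any of 45 values from settings that kept every library.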
